A study of Mus musculus with 51 samples.

Results

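Oxidative phosphorylation genes were followed through 4 cell populations sorted from mouse mammary glands. Members were the protein-coding genes whose symbols name subunits of respiratory complexes I to V: Nduf genes of the a, b, c, s and v series, Sdh genes, Uqcr genes, Cox4 to Cox8 genes, Atp5 genes and the protein-coding genes of the mitochondrial genome. There were 97 members among 52636 genes in the tables. Of these, 84 are nuclear (37 of complex I, 4 of complex II, 8 of complex III, 18 of complex IV and 17 of complex V by their symbols) and 13 are mitochondrial (7 of complex I, 1 of complex III, 3 of complex IV and 2 of complex V). The symbol alone decided the complex, so Ndufa4 and Ndufa4l2 are counted with complex I whichever complex their proteins join.

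The bulk RNA-seq study asked what antagonism of the estrogen receptor does in glands with a wild-type (WT) or a mutant receptor gene, Esr1. Its 51 libraries form 17 groups of 3, described as biological replicates. The mutant mice carry the receptor substitutions D542G or Y541S, and all mice, controls included, were 6 months old and bore hormone pellets of E2 and P4 (estradiol and progesterone). They then received 4 days of daily oral dosing with vehicle (MCT) or with giredestrant at 30 mg/kg, an estrogen receptor antagonist and degrader. Mature luminal (ML) and Basal cells were sequenced from WT, D542G and Y541S mice with vehicle. With giredestrant, ML, luminal progenitor (LP) and Basal cells were sequenced from WT, D542G and Y541S mice, and a further sorted population, called N here, from D542G and Y541S mice. No LP or N library with vehicle was analysed here, so the effect of giredestrant can be read in ML and Basal cells only, and N cells can be compared only with other cells of treated mutants. The sources used here do not say how many animals stand behind a library or how the N population was gated.

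Oxidative phosphorylation is carried out in the inner mitochondrial membrane. Complexes I and II pass electrons from NADH and succinate to coenzyme Q, complex III passes them on to cytochrome c, and complex IV passes them to oxygen, while complex V, the ATP synthase, uses the resulting proton gradient to make ATP. Complexes I, III, IV and V are assembled from subunits of both genomes, complex II from nuclear subunits alone, and the core subunits made from mitochondrial DNA are read from long transcripts of that genome. Estrogen receptor alpha marks the mature luminal cells of the mammary gland, and the estrogen-related receptors, which do not bind estrogen, are known activators of nuclear oxidative phosphorylation genes.

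Libraries held 21.4 to 60.1 M counts. Nuclear members passed the filter on low counts in 78 of 84 cases (79 in comparisons of N cells) and mitochondrial members in 12 of 13. Cox4i1, the ubiquitous subunit IV gene chosen to stand for complex IV, and Ndufa13 had no count in any library, and their exons are covered in full by other genes in the annotation. Ndufs1, Ndufb8 and Atp5o are covered over more than 50% of their exons, so their levels are uncertain. The 5 others that were not tested in at least some comparisons were Cox6a2, Cox7b2, Cox8b and Cox8c, all near 0, and mt-Nd4l. Medians over the libraries were below 10 CPM (counts scaled to a common library total) for mt-Co2, mt-Co3, mt-Atp6, mt-Atp8, mt-Nd3 and mt-Nd4l. All of these except mt-Atp8 have a copy annotated as a gene on a nuclear chromosome, at 99.71 to 100% identity over at least 294 bases. Whether mt-Atp8 has a copy outside the annotated genes was not examined, so its level is uncertain too. The annotated copies had median counts of 1 to 52, so the levels of the 5 members with such a copy cannot be taken as the transcripts' abundance. Counts and medians over the 12 tested mitochondrial members still include mt-Co2, mt-Co3, mt-Atp6, mt-Nd3 and mt-Atp8. mt-Nd4 (876 bases, 100% identical) and mt-Co1 (492 bases, 98.78%) also have a copy over part of their length. Basal marker genes summed to between 27770 and 58900 CPM in Basal libraries and to between 236 and 1789 CPM in ML libraries, which separates these populations as labelled. ML and LP cells of WT mice with giredestrant differed in 11 of 16555 genes. Luminal progenitor markers summed to 6078 to 15490 CPM in ML and 16900 to 17170 in LP cells of treated WT mice and to 7186 to 9764 and 11490 to 12440 in Y541S, without overlap, while in D542G they summed to 13520 to 22710 in ML and 13890 to 18110 in LP cells and overlapped.

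Across the 17 groups, the summed level of the nuclear members was highest in vehicle-treated ML cells and lowest in giredestrant-treated Basal cells. In CPM scaled by TMM, which sets the libraries to a common middle of all genes, it was 20120 ± 265 (SD, n = 3) in WT vehicle ML cells, 17170 ± 722 in D542G and 18340 ± 1161 in Y541S. In WT, D542G and Y541S ML cells with giredestrant it was 13710 ± 2103, 13430 ± 1008 and 13610 ± 1527, and no treated library reached the lowest vehicle library of its genotype. Vehicle Basal cells of the 3 genotypes were at 14630 ± 1465, 15210 ± 613 and 13970 ± 899, and treated Basal cells at 11240 ± 1377, 12000 ± 1130 and 11690 ± 1454. Among 69 nuclear members with a median of at least 10 CPM, WT vehicle ML was the group with the highest mean for 54, and Y541S and WT treated Basal cells were the lowest for 30 and 20. The place of WT among vehicle ML groups depends on the scaling. As a plain share of counts, nuclear members made up 1.59 ± 0.0456% in WT vehicle ML libraries. In D542G and Y541S vehicle ML libraries they made up 1.80 ± 0.0582% and 1.80 ± 0.0768%.

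The summed mitochondrial transcripts followed another order. They were at 7241 ± 2097 CPM in WT vehicle ML cells and 12420 ± 1865 in WT treated ML cells, with separate ranges. D542G ML cells went from 7701 ± 993 with vehicle to 12970 ± 3772 with giredestrant, again without overlap. Y541S ML cells were at 7103 ± 1086 and 8390 ± 1821, and their ranges overlapped. The lowest sums of all groups were those of N cells, 5228 ± 1860 in D542G and 4250 ± 254 in Y541S.

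**Figure D1:**
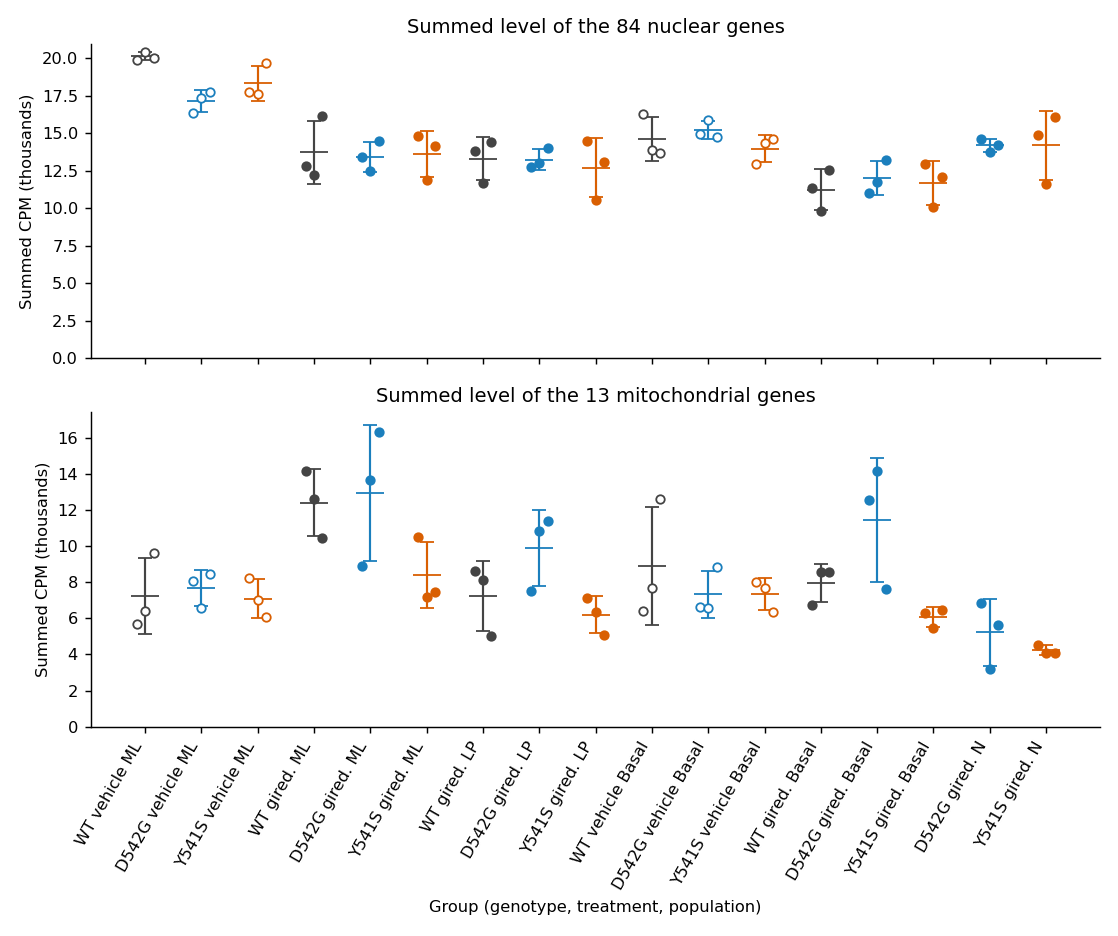
Summed CPM of the nuclear and of the mitochondrial members (vertical axes, TMM scaled) in each of the 51 libraries, arranged by the 17 groups; points are libraries and bars are mean ± SD of 3. Nuclear sums in treated ML cells lie below those of vehicle ML cells in each genotype (in WT not so as a share of counts), mitochondrial sums in WT and D542G treated ML cells lie above them, and N cells have the lowest mitochondrial sums.

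How the WT vehicle ML libraries are scaled decides the sign of the WT difference in ML cells. Their 10 most counted genes took 10.8 ± 0.524% of all counts (Gpx3, a secreted glutathione peroxidase, alone 6.4%), against 5.25 ± 0.441% in WT treated ML cells. As a plain share of counts the nuclear members made up 1.59 ± 0.0456% of WT vehicle ML libraries and 1.56 ± 0.225% of treated ones, and the ranges overlapped. With library totals as the only scaling, chosen as an alternative after the data were seen, the median log2 difference of all genes between treated and vehicle WT ML cells moved from 0.08 to 0.57. Relative to the median of all genes, the nuclear members stood at -0.54 under either scaling. Scaling shifts all genes by nearly the same amount, so this value could hardly differ and is no check on either scaling. In D542G and Y541S ML cells the shares of counts were lower in each treated than in each vehicle library, at 1.45 ± 0.0767% against 1.80 ± 0.0582% and at 1.47 ± 0.157% against 1.80 ± 0.0768%. The differences below are relative to the middle of all genes, as TMM sets it.

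In ML cells, most nuclear members were lower with giredestrant than with vehicle in Y541S mice and, relative to the middle of all genes though not with library totals alone, in WT mice. Of 78 tested, 69 in WT, 70 in D542G and 71 in Y541S had a log2 difference below 0, and fewer of them passed the test in D542G. In WT, 48 of 78 tested nuclear members fell and 2 rose at an adjusted p under 0.05 (edgeR's quasi-likelihood test with Benjamini-Hochberg adjustment over all genes), where 17% of all genes fell and 17.1% rose. The median log2 difference of the nuclear members was -0.46, against 0.08 over all genes. With library totals alone the counts became 12 lower and 14 higher and the median 0.02. In Y541S, 55 fell and 1 rose (13% and 12% of all genes, 24.9% in either direction), with a median of -0.54 against 0.02, and 39 fell and 1 rose with library totals alone. In D542G, 20 fell and 3 rose (11.3% and 9.34% of all genes), with a median of -0.34 against 0.05. The Y541S count of 56 became 33 without vehicle replicate 3 and 35 without giredestrant replicate 2. The D542G count of 23 became 13, 3 and 4 without vehicle replicates 1, 2 and 3, and 10 and 3 without giredestrant replicates 1 and 2. In bulk samples, fewer cells of a type and less RNA per cell cannot be told apart.

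In WT ML cells 23 of 36 tested members of complex I fell, 2 of 4 of complex II, 6 of 8 of complex III, 8 of 13 of complex IV and 9 of 17 of complex V. Y541S ML cells showed 27, 1, 5, 10 and 12 falls in the same order, and D542G ML cells 8, 1, 3, 2 and 6. The shares of all genes that fell were 17% in WT, 11.3% in D542G and 13% in Y541S. Median log2 differences per complex lay between -0.35 and -0.59 in WT, between -0.24 and -0.36 in D542G and between -0.37 and -0.65 in Y541S, with complex II the smallest in each genotype.

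Complex I had the largest fall among WT members. Ndufa1, an accessory subunit needed for assembly of the membrane arm, stood at 209.5, 203 and 195 CPM in the WT vehicle ML libraries and at 66.2, 63.2 and 94.8 in the treated ones. All 3 treated libraries lay far below all 3 vehicle libraries, a log2 difference of -1.40 ± 0.19 (SE; edgeR adjusted p = 6.89e-05). The same gene fell by 0.65 ± 0.19 in D542G ML cells, from 162, 124 and 137 CPM to 109, 72.8 and 87.8 (edgeR adjusted p = 0.0235), and by 0.90 ± 0.19 in Y541S ML cells, from 156, 169.9 and 153 to 106, 72.5 and 77.7 (edgeR adjusted p = 0.00342). No treated library of any genotype reached its vehicle libraries. Ndufa7, another accessory subunit, fell by 1.09 ± 0.16 in Y541S ML cells, from 289, 352 and 336 CPM to 184, 118 and 157 (edgeR adjusted p = 4.85e-04), the largest fall of a nuclear member in that genotype. Ndufv3, an accessory subunit of the NADH-binding arm, went there from 134, 191 and 149 CPM to 81.9, 62.9 and 84.7, a fall of 1.05 ± 0.14 (edgeR adjusted p = 3.35e-04). The core iron-sulfur subunit gene Ndufs1 did not pass the test in any of the 3 genotypes, with log2 differences of -0.35 ± 0.16, -0.35 ± 0.16 and -0.17 ± 0.16.

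Complex II moved least. Sdha, its catalytic flavoprotein, was at 492, 482 and 454 CPM in WT vehicle ML cells and at 412, 410.1 and 478 in treated ones, and the ranges overlapped. Its log2 difference of -0.10 ± 0.11 did not pass the test (edgeR adjusted p = 0.518), and it turned to 0.39 with library totals alone. The D542G and Y541S differences of Sdha were -0.12 ± 0.11 and 0.11 ± 0.11, neither past the test.

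In complex III, the small subunit gene Uqcrq fell by 1.18 ± 0.20 in WT ML cells, from 330.3, 322 and 350.0 CPM to 132, 114 and 185 (edgeR adjusted p = 3.38e-04). Uqcr10, another small subunit, fell by 0.95 ± 0.17 in Y541S, from 235, 209 and 265 CPM to 148, 89.8 and 131 (edgeR adjusted p = 0.00167). For both, each treated library was below each vehicle library. Uqcrc1, a core protein of the same complex, did not pass the test in WT (-0.33 ± 0.13), D542G (-0.31 ± 0.13) or Y541S (-0.28 ± 0.13).

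In complex V, Atp5g1 fell in all 3 genotypes. It is 1 of 3 genes that encode the same subunit c of the rotor ring. Its levels were 32.3, 24.7 and 33.4 CPM in WT vehicle ML cells and 11.8, 11.4 and 15.6 in treated ones, with no overlap (-1.18 ± 0.20, edgeR adjusted p = 4.00e-04). The differences in D542G and Y541S were -0.89 ± 0.20 and -0.74 ± 0.20. Atp5g3 was by far the most counted of the 3 genes, with a median of 459.5 CPM over the libraries against 14.28 for Atp5g1. It went from 656.8 ± 13.99 to 402.5 ± 93.9 CPM in WT ML cells. Atp5g2, near the floor, went from 1.608 ± 0.48 to 3.159 ± 1.608 CPM there. Atp5b, the catalytic beta subunit, fell by 0.52 ± 0.15 in WT, from 2882, 3099 and 2761 CPM to 1824, 1686 and 2422, and by 0.46 ± 0.15 in D542G (edgeR adjusted p = 0.0132 and 0.0377). In Y541S the difference of -0.24 ± 0.15 did not pass the test. The treated libraries were all lower than the vehicle libraries there too, at 2516, 2226 and 2465 CPM against 2646, 2859 and 2995.

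**Figure D2:**
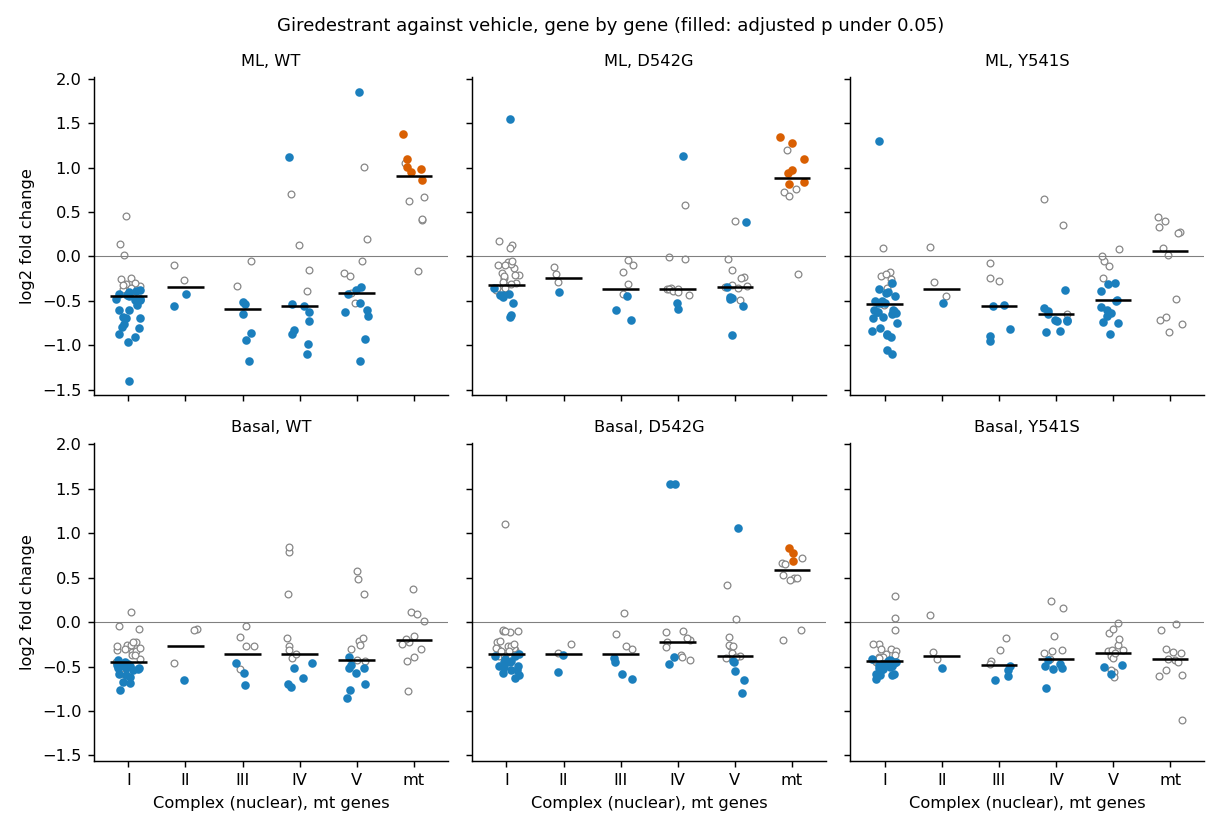
Log2 difference of giredestrant against vehicle (vertical axis) for each tested nuclear member by complex and for the mitochondrial members, in ML and Basal cells of WT, D542G and Y541S mice; filled points passed edgeR's test at an adjusted p under 0.05 and black bars are medians. Nuclear medians are below 0 in all 6 panels (in WT ML cells the median turns to 0.02 with library totals alone), while mitochondrial members are mostly above 0 in WT and D542G ML cells and below 0 in Y541S Basal cells.

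Markers of other cells moved in some of these comparisons, and their part in the result was not tested. In Y541S ML cells with giredestrant, 9 of 12 endothelial markers rose (summed 170.5 to 262.5 CPM against 72.5 to 107), 8 of 17 basal markers (516 to 1094 against 260.4 to 374.5), 7 of 12 fibroblast markers and 5 of 8 pericyte markers. In D542G ML cells 14 of 17 proliferation genes fell (393 to 572 CPM against 997 to 1958) and 4 of 11 luminal progenitor markers rose (summed 13520 to 22710 CPM against 6451 to 9481). Mature luminal markers summed to 2896 to 5181 CPM against 5382 to 6281 in WT, with 4 of 12 lower, and to 1655 to 2268 against 2374 to 3502 in Y541S, with 2 of 12 lower, in neither case with overlap. In WT ML cells 6 of 11 luminal progenitor markers rose, and endothelial markers summed to 106.9 to 166.5 CPM against 160.5 to 210.4 with vehicle.

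Basal cells, which are sorted apart from the receptor-bearing luminal cells, showed falls of nuclear members in each genotype as well. In WT Basal cells 34 of 78 fell and none rose by edgeR's test, where 6.53% of all genes fell and 4.54% rose, with a median of -0.42 against 0.02 over all genes. In D542G Basal cells 29 fell and 3 rose (15.6% and 12.6% of all genes, 28.2% in either direction), and the median was -0.35 against 0.00. In Y541S Basal cells 34 fell and none rose (6.96% and 8.15% of all genes), with a median of -0.43 against 0.00. Only 7, 7 and 5 of the 78 had a positive log2 difference in WT, D542G and Y541S.

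These Basal counts changed more than the medians did when 1 library was left out, and not through 1 particular library. Each such refit also has fewer libraries. The WT count of 34 became 5 without vehicle replicate 1, 19 without vehicle replicate 3, and 5 without giredestrant replicate 1 or 2. The D542G count of 32 became 21 and 5 without vehicle replicates 1 and 2 and 6 and 10 without giredestrant replicates 1 and 2. The Y541S count of 34 became 18 and 9 without vehicle replicates 2 and 3 and 9 without giredestrant replicate 2. Proliferation genes fell in D542G Basal cells (16 of 17, 192 to 306 CPM against 1059 to 1925) and in 5 of 17 cases in WT, and endothelial markers rose in D542G (10 of 12) and Y541S (8 of 12). Their part in the result was not tested.

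The largest Basal falls among members of at least 10 CPM came from complexes I, III, IV and V. Atp5g1 in WT Basal cells went from 20.9, 13.7 and 15.6 CPM to 9.49, 7.70 and 11.2, a fall of 0.86 ± 0.19 without overlap (edgeR adjusted p = 0.013). Ndufb7, an accessory subunit of complex I, fell by 0.77 ± 0.14 in WT, 0.58 ± 0.14 in D542G and 0.49 ± 0.14 in Y541S. Atp5k, subunit e of the ATP synthase, fell by 0.79 ± 0.22 in D542G, from 33.7, 37.4 and 35.5 CPM to 18.6, 19.6 and 25.2 (edgeR adjusted p = 0.0154). Uqcr10 fell by 0.65 ± 0.17 in Y541S Basal cells, from 155, 170.5 and 169.5 CPM to 129, 82.5 and 113 (edgeR adjusted p = 0.0181). In these 3 genes no treated library reached a vehicle library. Cox7c, a complex IV subunit, was the largest Y541S Basal fall by this rule, -0.74 ± 0.20, at low levels of 6.47 ± 0.488 against 10.5 ± 0.997 CPM.

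The 6 comparisons of giredestrant with vehicle share no libraries and can be set side by side gene by gene. They are not independent, since same-numbered ML and Basal vehicle libraries deviated together (9 pairs, r 0.134 to 0.180 across genes). Of the 78 tested nuclear members, 2 fell in all 6, 16 in 5, 11 in 4, 19 in 3, 10 in 2, 7 in 1 and 13 in none. The same count was not made over all genes, so these numbers do not show how unusual the recurrence is. The 2 that fell in all 6 were Ndufs6, a zinc-binding accessory subunit of complex I, and Cox5a, a subunit of complex IV. Ndufs6 was at 139.5, 124 and 137 CPM in WT vehicle ML cells and 80.0, 76.1 and 100.4 in treated ones, and at 124, 108 and 110.3 in WT vehicle Basal cells and 72.5, 61.8 and 84.5 in treated ones. Its 6 log2 differences ran from -0.42 in D542G ML cells to -0.68 in WT Basal cells. Cox5a was at 201, 205 and 212 CPM in WT vehicle ML cells against 91.2, 77.3 and 135 with giredestrant, and its differences ran from -0.40 in D542G Basal cells to -0.98 in WT ML cells. For both genes the groups did not overlap in any of the 6 comparisons. Among the 13 that fell in none were Sdha and Sdhc of complex II, Ndufs1 and Ndufa9 of complex I, Uqcrc2 of complex III and the low isoforms Ndufa4l2, Cox4i2, Cox6b2 and Cox7a1.

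The 250 bases before the start sites of nuclear members were searched on both strands for short motifs of factors known to act on such promoters. RefSeq promoters were matched for 68 of the 84 nuclear members. The palindromic NRF1 motif was in 12 of 68 (17.6%), against 3.86% of 27025 promoters of the same length. An ETS motif, ACCGGAAG, was in 3 (4.41% against 1.70%), the estrogen-related receptor motif TCAAGGTCA in 1 (1.47% against 0.366%), and the YY1 motif AAGATGGC (1.59% of all promoters) and the palindromic estrogen response element (0.0629%) in none. A match is a description of letters and not a binding site. NRF1 matches were also found in Sdha, Ndufb4 and Atp5g2, which fell in none of the 6 comparisons. Others were in Ndufs5, which fell in 2, in Atp5h and Atp5k, which fell in 3, and in Ndufa5 and Ndufa11, which fell in 4. Whether a match goes with the fall was not tested. The 5 promoters with an NRF1 or ETS match whose gene fell in at least 5 of the 6 comparisons are shown from RefSeq on GRCm38.p6, all on the minus strand and read 5′ to 3′ toward the start site, with the matches in capitals: Ndufs6 (chr13:73328483-73328732), Cox6a1, a complex IV subunit (chr5:115348959-115349208, with NRF1 matches starting at -162 and -117), Ndufa8, a complex I subunit (chr2:36049339-36049588), Sdhd, a membrane anchor of complex II (chr9:50603850-50604099, NRF1 at -79 and ETS at -46), and Ndufb6, a complex I subunit (chr4:40279422-40279671, ETS at -232).
Ndufs6: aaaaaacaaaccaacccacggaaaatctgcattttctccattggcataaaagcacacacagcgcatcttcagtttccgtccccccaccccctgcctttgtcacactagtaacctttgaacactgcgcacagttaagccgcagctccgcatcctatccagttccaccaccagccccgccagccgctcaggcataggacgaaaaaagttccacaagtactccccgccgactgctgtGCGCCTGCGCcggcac
Cox6a1: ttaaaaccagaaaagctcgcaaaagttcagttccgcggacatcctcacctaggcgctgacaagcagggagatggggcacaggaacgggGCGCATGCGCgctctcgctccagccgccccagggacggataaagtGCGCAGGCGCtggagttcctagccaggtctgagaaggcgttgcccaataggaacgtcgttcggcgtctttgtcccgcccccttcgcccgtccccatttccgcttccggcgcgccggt
Ndufa8: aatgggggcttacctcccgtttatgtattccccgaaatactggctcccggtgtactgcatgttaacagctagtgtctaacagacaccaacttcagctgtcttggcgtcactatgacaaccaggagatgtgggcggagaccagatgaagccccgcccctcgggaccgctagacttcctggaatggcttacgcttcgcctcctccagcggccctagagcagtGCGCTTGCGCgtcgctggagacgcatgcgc
Sdhd: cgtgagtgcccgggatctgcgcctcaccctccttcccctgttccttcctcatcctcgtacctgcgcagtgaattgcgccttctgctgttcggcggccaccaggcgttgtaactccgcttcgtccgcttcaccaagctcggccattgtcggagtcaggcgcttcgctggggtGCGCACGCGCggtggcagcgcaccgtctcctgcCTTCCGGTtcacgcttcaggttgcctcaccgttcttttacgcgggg
Ndufb6: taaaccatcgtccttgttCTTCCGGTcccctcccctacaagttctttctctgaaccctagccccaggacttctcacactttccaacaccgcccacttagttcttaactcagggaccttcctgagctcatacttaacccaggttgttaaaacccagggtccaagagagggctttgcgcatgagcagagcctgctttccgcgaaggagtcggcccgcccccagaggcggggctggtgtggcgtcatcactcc

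The NRF1 match begins 16 bases before the RefSeq start site in Ndufs6 and 30 before it in Ndufa8. In the GENCODE M21 annotation these genes start further upstream, at chr13:73328542 and chr2:36049406, so both matches lie inside the genes as annotated there. Cox6a1, the common isoform of subunit VIa, fell in 5 of the 6 comparisons. Its WT Basal libraries went from 311, 291 and 329.7 CPM to 185, 175 and 213.5 (-0.73 ± 0.12, edgeR adjusted p = 0.00431), all treated libraries below all vehicle libraries. In the remaining comparison, Y541S Basal cells, it was at 245, 177.5 and 204.5 CPM against 250.4, 253 and 268, and the difference of -0.34 ± 0.12 did not pass the test.

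The log2 difference with treatment varied with exon length among all genes, least in D542G ML cells. The part of exon length in the fall of the members was not tested beyond the values given here. The members have short transcripts, with a median exon length of 1522.5 bases against 4914 for other protein-coding genes of at least 30 CPM. Among those other genes, the median log2 difference in WT ML cells was -0.40 for exon lengths up to 1000 bases, -0.30 from 1000 to 2000, -0.23 from 2000 to 4000, -0.10 from 4000 to 8000 and 0.14 above 8000. The nuclear members in the first 4 classes had medians of -0.80 (n = 13), -0.55 (n = 24), -0.38 (n = 18) and -0.33 (n = 7). In Y541S ML cells the other genes ran from -0.49 to 0.29 across the 5 classes, and the members were at -0.72, -0.62, -0.41 and -0.30 in the first 4. In D542G ML cells the other genes lay between -0.12 and 0.04, and their shortest class, at -0.08, was not the lowest. The members there ran from -0.42 to -0.31. The members' medians were below those of the other genes in each of the 4 classes of all 6 comparisons. The gap was smallest in the shortest class of Y541S Basal cells, -0.49 against -0.44.

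**Figure D3:**
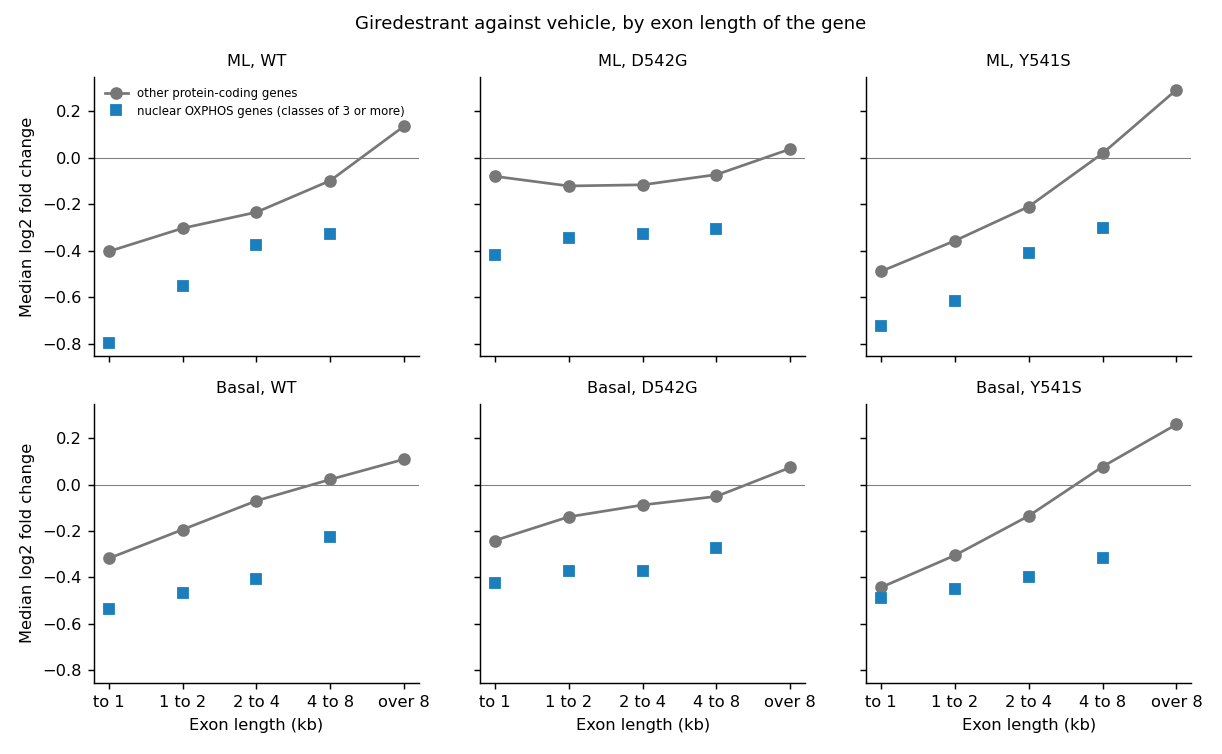
Median log2 difference of giredestrant against vehicle (vertical axis) by class of exon length in bases (horizontal axis) for nuclear members and for all other protein-coding genes of at least 30 CPM, in the 6 treatment comparisons; classes with fewer than 3 members are not drawn for the members. Short genes are lower after treatment in both sets, though the other genes differ little between classes in D542G ML cells. The members lie below the other genes in each class drawn.

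With an offset that removes the smooth trend with exon length from each library, an alternative chosen after the data were seen, fewer members fell. The falls then numbered 35 in WT, 11 in D542G and 20 in Y541S ML cells (with 5, 3 and 2 rises) and 24, 16 and 4 in WT, D542G and Y541S Basal cells (with 2, 5 and 0 rises). The Y541S counts changed most, from 55 to 20 in ML cells and from 34 to 4 in Basal cells.

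About as many mitochondrial transcripts rose with giredestrant in WT as in D542G ML cells. In WT, 6 of 12 tested rose and none fell by edgeR's test, where 17.1% of all genes rose, with a median log2 difference of 0.91. In D542G, 7 rose and none fell, where 9.34% of all genes rose, with a median of 0.89. In Y541S none of the 12 passed the test in either direction, none had an unadjusted p under 0.05, DESeq2 also called none, and the median was 0.06. The WT count of 6 became 2 and 3 without vehicle replicates 1 and 2. The D542G count of 7 became 2, 0 and 2 without vehicle replicates 1, 2 and 3, and 4 and 2 without giredestrant replicates 2 and 3.

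mt-Co1, the catalytic subunit of complex IV, was at 428, 512 and 730.4 CPM in WT vehicle ML cells and 1613, 1496 and 1125 in treated ones. The groups did not overlap, and the log2 difference was 1.38 ± 0.24 (edgeR adjusted p = 5.65e-04). In D542G ML cells it went from 909.8, 608 and 795 CPM to 1167, 1574 and 1819, a rise of 0.98 ± 0.24 (edgeR adjusted p = 0.0124). In Y541S ML cells it was at 798, 788 and 554 CPM with vehicle and 1081, 789.6 and 825 with giredestrant, overlapping ranges with a difference of 0.33 ± 0.24 that did not pass the test. mt-Cytb, the cytochrome b of complex III, rose by 0.86 ± 0.25 in WT, from 2578, 2956 and 4400 CPM to 6756, 5691 and 5155 (edgeR adjusted p = 0.0136). In D542G its difference of 0.68 ± 0.25 did not pass the test (edgeR adjusted p = 0.0623), although no treated library reached down to a vehicle library. mt-Nd5, a complex I core subunit, rose by 0.98 ± 0.27 in WT, and mt-Nd6, the complex I subunit encoded on the opposite strand of the genome, by 1.10 ± 0.28 in WT and 0.82 ± 0.28 in D542G. mt-Nd1 did not pass the test in any genotype (0.41 ± 0.25, 0.73 ± 0.25 and 0.10 ± 0.25).

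The ratio of summed mitochondrial to summed nuclear levels moved from 0.360 ± 0.105 to 0.930 ± 0.246 in WT ML cells, from 0.449 ± 0.0619 to 0.965 ± 0.260 in D542G and from 0.390 ± 0.0780 to 0.615 ± 0.0906 in Y541S. In each genotype the treated libraries lay above the vehicle libraries. This ratio does not depend on how libraries are scaled.

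In Basal cells, 3 of 12 mitochondrial members rose in D542G, where 12.6% of all genes rose, and none in WT or Y541S by edgeR's test. mt-Nd2, a complex I core subunit, rose by 0.84 ± 0.26 in D542G Basal cells (edgeR adjusted p = 0.028), from 282, 249.6 and 346 CPM to 620.4, 669.7 and 325. The third treated library lay among the vehicle libraries, so the groups overlapped. mt-Co1 and mt-Nd4 rose by 0.78 ± 0.24 and 0.69 ± 0.25. The count of 3 became 0 without vehicle replicate 1 or 2 or giredestrant replicate 1 or 2, and 7 without giredestrant replicate 3. In WT and Y541S Basal cells no mitochondrial member passed the test, at an unadjusted p under 0.05 there were 0 and 1, and DESeq2 called 0 and 1. In Y541S Basal cells all 12 had a negative log2 difference, with a median of -0.42.

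Whether giredestrant acted differently on the members in mutant and WT ML cells was tested directly. For D542G against WT, no nuclear member passed edgeR's test of the difference of effects (6.57% of all genes did, 4.18% higher and 2.39% lower), 12 had an unadjusted p under 0.05 and DESeq2 called 6. The median difference was 0.19, above 0 in 63 of 78, and it turned to -0.25 with library totals alone, where 9 members passed, all lower. Without WT giredestrant replicate 3 the TMM count was 5, and without D542G vehicle replicate 1 it was 1.

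For Y541S against WT, 2 of 78 nuclear members passed, both lower, where 1.8% of all genes were lower, 3.98% higher and 5.79% called in either direction. Ndufs4, an accessory subunit of complex I whose loss in mice gives a model of mitochondrial disease, was at 125, 139.5 and 138 CPM in WT vehicle ML cells and 144, 145 and 145 in treated ones. In Y541S ML cells it was at 158, 158 and 145 with vehicle and 130.1, 124 and 122 with giredestrant. WT treated libraries were above their vehicle libraries and Y541S treated ones below theirs, and the difference of effects was -0.44 ± 0.12 (edgeR adjusted p = 0.045). Atp5l, subunit g of the ATP synthase, was at 1.53, 1.49 and 1.43 CPM in WT vehicle ML cells and 7.17, 4.47 and 4.08 in treated ones, a rise of 1.85 ± 0.35 (edgeR adjusted p = 9.81e-04). Its Y541S libraries overlapped, 2.64, 3.29 and 2.47 CPM against 2.32, 3.87 and 1.92, and the difference of effects was -1.90 ± 0.49 (edgeR adjusted p = 0.0332). These levels are low for a subunit of a core enzyme, and whether copies of Atp5l elsewhere in the genome share its reads was not examined. The count of 2 became 0 or 1 without any 1 of the 12 libraries, and 10, all lower, with library totals alone.

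The 12 tested mitochondrial members all had a lower treated-against-vehicle difference in Y541S than in WT, with a median difference of effects of -0.71 on the log2 scale. None passed edgeR's test, 3 had an unadjusted p under 0.05, and DESeq2 called 3. For D542G against WT the median was 0.05, none passed, none had an unadjusted p under 0.05 and DESeq2 called none.

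Among vehicle-treated ML cells, 10 of 78 nuclear members were lower and 1 higher in D542G than in WT by edgeR's test, where 10.2% of all genes were lower and 9.37% higher. The direction depends on the scaling: the median was -0.22 with TMM and 0.15 with library totals alone, where 12 members were higher and none lower. Relative to the median of all genes it was -0.28 under both, which is no check, since scaling shifts all genes nearly alike. Ndufa6, an accessory subunit of complex I, was at 154, 156 and 164 CPM in WT and 99.7, 91.4 and 104 in D542G, separate ranges (-0.64 ± 0.13, edgeR adjusted p = 0.00321). Ndufb11, also of complex I, and Cox6a1 were lower by -0.61 ± 0.13 and -0.57 ± 0.16. The count of 11 became 4, 5 and 3 without WT replicates 1, 2 and 3 and 3, 4 and 6 without D542G replicates 1, 2 and 3. Proliferation genes were higher in D542G (15 of 17) and mature luminal markers lower (8 of 12), and their part in the result was not tested.

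Y541S and WT vehicle ML cells did not differ in any nuclear member by edgeR's test (10.9% of all genes did, 4.79% higher and 6.08% lower). There 14 had an unadjusted p under 0.05, DESeq2 called 5, 6 were lower without Y541S replicate 3, and 11 were higher with library totals alone. With giredestrant, D542G and WT ML cells did not differ in any member by edgeR's test (2.6% of all genes did), 3 had an unadjusted p under 0.05 and DESeq2 called none.

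Y541S and WT treated ML cells differed in 4 of 78 nuclear members, all lower in Y541S, against 6.75% of all genes lower and 8.38% higher. Ndufa6 was among them, at 102, 114 and 114 CPM in WT and 75.0, 59.4 and 80.1 in Y541S (-0.64 ± 0.13, edgeR adjusted p = 0.00649). Sdhc, a membrane anchor of complex II, and Cox7c were lower by -0.58 ± 0.19 and -0.58 ± 0.18. All 12 tested mitochondrial members were lower in Y541S, with a median of -0.81. Of these, mt-Atp6, a rotor-side channel subunit of the ATP synthase and 1 of the members with a near-identical nuclear copy, alone passed the test, -1.01 ± 0.33 (edgeR adjusted p = 0.0471), and 10 of 12 had an unadjusted p under 0.05. The nuclear count of 4 became 1, 1 and 2 without WT replicates 1, 2 and 3 and 1 without Y541S replicate 1. The mitochondrial count of 1 became 0 without WT replicate 1 or 2 or Y541S replicate 2 or 3.

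In the other populations few or no members passed the test between mutant and WT cells. In Basal cells with vehicle no member differed between the mutants and WT by edgeR's test (0.233% of all genes did), 2 nuclear and 1 mitochondrial member had an unadjusted p under 0.05, and DESeq2 called none. In LP cells with giredestrant no member differed (0.175% of all genes did, 0.0604% being lower), 2 nuclear and 0 mitochondrial members had an unadjusted p under 0.05, and DESeq2 called none. In Basal cells with giredestrant 2 of 78 nuclear members were lower in the mutants (4.62% of all genes were lower, 4.86% higher and 9.48% either). Cox7a2l, which takes part in joining complexes III and IV into supercomplexes, was at 58.3, 62.5 and 55.8 CPM in WT, at 42.5, 47.0 and 49.1 in D542G and at 43.5, 38.1 and 43.0 in Y541S. No mutant library reached WT (-0.47 ± 0.09, edgeR adjusted p = 0.00582). Ndufa6 was lower by -0.39 ± 0.11 with overlapping ranges. The count of 2 became 1 without WT replicate 1 or 2, D542G replicate 1 or 3, or Y541S replicate 2.

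Vehicle-treated ML cells carried more of most nuclear members than Basal cells, across the 3 genotypes. Of 78, 57 were higher in ML and 5 lower by edgeR's test, in a comparison where 32.5% of all genes were higher and 35.5% lower, and the median was 0.32 against -0.05 over all genes. The members higher in ML were 26 of 36 in complex I, 2 of 4 in complex II, 7 of 8 in complex III, 10 of 13 in complex IV and 12 of 17 in complex V. With the exon length offset 46 were higher and 11 lower.

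Ndufa7 differed most among members of at least 10 CPM. It was at 310.2, 348 and 339 CPM in WT, 238, 255 and 254 in D542G and 289, 352 and 336 in Y541S vehicle ML cells. In vehicle Basal cells it was at 108, 99.5 and 91.5 in WT, 108, 93.5 and 100.2 in D542G and 105, 98.1 and 108 in Y541S. The lowest ML library was at 238 and the highest Basal library at 108, a log2 difference of 1.52 ± 0.05 (edgeR adjusted p = 1.58e-12). Cox5a was higher in ML by 0.91 ± 0.06. Ndufa11, an accessory subunit of the complex I membrane arm, went the other way by -0.62 ± 0.06, at 184 ± 28.3 CPM in ML and 274 ± 29.3 in Basal cells (n = 9 each; edgeR adjusted p = 2.12e-07). Sdhc was lower in ML by -0.22 ± 0.09 as an average over the genotypes. Its mean was lower in ML in D542G (184.5 against 230.6 CPM) and Y541S (191.4 against 247), but not in WT. In WT it was at 257.1 ± 32.9 CPM in ML and 230.6 ± 31.85 in Basal cells, with overlapping ranges. Uqcrc1 did not differ by the test (-0.04 ± 0.06).

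Mitochondrial members did not share that pattern. Of 12, mt-Nd2 alone passed the test, lower in ML by -0.44 ± 0.15 with overlapping ranges (edgeR adjusted p = 0.0144), and 11 of 12 had a negative difference with a median of -0.12. With the replicate numbers as a block, which pair ML and Basal libraries here, 2 passed. The count was also 2 without WT vehicle Basal replicate 1 or WT vehicle ML replicate 3.

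In WT mice with giredestrant, 21 nuclear members were higher and 2 lower in ML than in Basal cells (20.5% and 20.9% of all genes), with the same median of 0.32. With library totals alone 49 were higher and 1 lower, and in 1 fit of all 51 libraries 35 and 3. Ndufa7 was again the largest difference at 10 CPM or more, 163, 144 and 212 CPM against 93.4, 77.7 and 84.9 (1.01 ± 0.15, edgeR adjusted p = 6.29e-04). Here 3 mitochondrial members were higher in ML and none lower, mt-Cytb, mt-Nd5 and mt-Nd6, with differences of 0.71, 0.82 and 0.97. The nuclear count of 23 became 11 and 13 without Basal replicates 1 and 2 and 15 without ML replicate 3, and the mitochondrial count of 3 became 0 without ML replicate 1 or Basal replicate 1 or 2.

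LP and Basal cells of treated WT mice differed in 13 higher and 4 lower nuclear members (18.7% and 19.9% of all genes), with a median of 0.25. Sdha was at 475, 433 and 497 CPM in LP and 317, 263 and 322 in Basal cells, separate ranges (0.63 ± 0.13, edgeR adjusted p = 0.00502). Ndufa7 and Ndufv3 were higher by 0.75 ± 0.15 and 0.52 ± 0.12, and Ndufa11 lower by -0.63 ± 0.21. With library totals alone 32 were higher and 2 lower, and with the exon length offset 7 and 5. The count of 17 became 5 and 8 without LP replicates 1 and 3, and 6 and 8 without Basal replicates 1 and 2. No mitochondrial member passed edgeR's test, at an unadjusted p under 0.05 there was none, and DESeq2 called none.

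LP and ML cells of treated WT mice did not differ in any member by edgeR's test (0.0664% of all genes did). Of the nuclear members none had an unadjusted p under 0.05 and DESeq2 called none. Of the 12 mitochondrial members, all were lower in LP with a median of -0.76, 8 had an unadjusted p under 0.05 and DESeq2 called 1.

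Among cells of treated mutants, the N population stood apart by its mitochondrial transcripts. The ratio of summed mitochondrial to nuclear levels was 0.366 ± 0.121 in D542G N cells and 0.305 ± 0.0488 in Y541S N cells. WT vehicle ML cells were at 0.360 ± 0.105, so N cells did not stand apart from them by this ratio. Averaged over both mutants with giredestrant, 11 of 12 tested mitochondrial members were lower in N than in ML cells and none higher by edgeR's test, where 14.2% of all genes were lower, with a median of -1.15 against -0.01 over all genes. The remaining one also had a negative difference. Against LP cells 7 of 12 were lower and none higher (18% of all genes lower), with a median of -0.67, and against Basal cells 7 of 12 were lower and none higher (22.5% of all genes lower), with a median of -0.76. The 3 comparisons share the N libraries. Leaving out any 1 library left 10 to 11, 7 to 8 and 6 to 8 members lower.

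mt-Cytb was at 3149, 1406 and 2599 CPM in D542G N cells and 2289, 1931 and 1920 in Y541S N cells. In ML cells it was at 4158, 6013 and 7433 in D542G and 5293, 3422 and 3827 in Y541S. No N library reached an ML library, and the log2 difference was -1.17 ± 0.20 (edgeR adjusted p = 1.82e-04). LP cells were at 3288, 4213 and 5096 in D542G and 3445, 3021 and 2349 in Y541S, and Basal cells at 5506, 6094 and 3433 and at 3108, 2663 and 3052. N cells overlapped both, with differences of -0.67 ± 0.20 and -0.80 ± 0.20, and within each genotype alone the highest N library was below the lowest LP and Basal library. mt-Co1 was at 809, 382 and 609.8 CPM in D542G N cells and 583, 519.6 and 418 in Y541S N cells, against 1167, 1574 and 1819 and 1081, 789.6 and 825 in ML cells. Its difference from ML was -1.08 ± 0.18 (edgeR adjusted p = 1.56e-04), with an overlap only through the highest D542G N library. mt-Nd1 and mt-Nd2 were lower than in ML by -1.16 ± 0.20 and -0.97 ± 0.22.

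Few nuclear members passed the test against ML cells, with 3 higher and 3 lower of 79 (15.7% and 14.2% of all genes) and a median of -0.01. Uqcrc1, a core subunit of complex III, was at 871.6, 877 and 941.5 CPM in D542G N cells and 769.5, 656 and 777 in Y541S N cells. ML cells were at 602, 557 and 662 in D542G and 616, 489 and 619 in Y541S. The highest ML library passed the lowest N library, and the difference was 0.46 ± 0.10 (edgeR adjusted p = 0.00125). Uqcrc1 was also higher in N than in LP, by 0.56 ± 0.10 without overlap, and than in Basal cells, by 0.48 ± 0.10. Atp5s, a gene related to coupling factor B of the ATP synthase, was higher in N than in ML by 0.33 ± 0.12, and Cox7c and Ndufc2 were lower by -0.45 ± 0.15 and -0.36 ± 0.13. With library totals alone the nuclear split against ML became 2 higher and 6 lower, and with RLE scaling 2 and 4. The count of 6 became 3 without D542G ML replicate 3, D542G N replicate 3, Y541S ML replicate 1 or Y541S N replicate 2.

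Against LP cells 8 nuclear members were higher in N and 3 lower (18.4% and 18% of all genes), with a median of 0.03. Ndufs1 was higher by 0.52 ± 0.12 and Ndufs4 lower by -0.22 ± 0.08. With library totals alone the split was 3 higher and 8 lower, and with the exon length offset 8 and 5. The count of 11 became 7 without D542G LP replicate 2. Against Basal cells 24 were higher and 3 lower (22.1% and 22.5% of all genes), with a median of 0.23. The split was 22 and 7 with the exon length offset, 42 and 3 with library totals alone, and 37 and 4 in 1 fit of all 51 libraries. Ndufa7 was at 141.5, 134 and 133 CPM in D542G and 169, 136 and 159.8 in Y541S N cells, all above the Basal libraries at 91.3, 100.3 and 98.5 and at 92.1, 70.0 and 77.5 (0.72 ± 0.13, edgeR adjusted p = 1.12e-04). Ndufa11 and Sdhc were lower than in Basal cells by -0.55 ± 0.16 and -0.48 ± 0.14. In vehicle ML cells both were also lower than in Basal cells as an average over the genotypes, though Sdhc was not lower in WT.

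**Figure D4:**
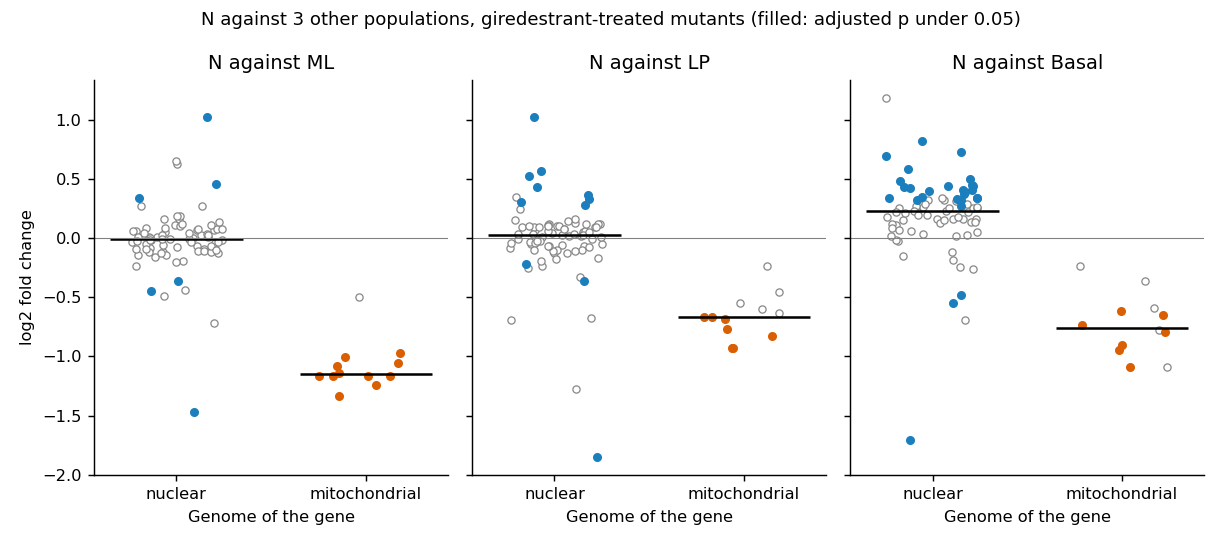
Log2 difference of N cells against ML, LP and Basal cells (vertical axis) of D542G and Y541S mice with giredestrant, for each tested nuclear and mitochondrial member; filled points passed edgeR's test and bars are medians. Mitochondrial members lie below 0 against all 3 populations (medians -1.15, -0.67 and -0.76), while nuclear medians are -0.01, 0.03 and 0.23.

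N cells carried markers of more than 1 lineage. Basal markers summed to 14520 to 17610 CPM in D542G and 3249 to 5540 in Y541S N cells, mature luminal markers to between 2539 and 3592 CPM, and all 11 tested luminal progenitor markers were lower than in ML and LP cells. Endothelial markers summed to 100.1 to 601 CPM in N cells, 166.6 to 305 in ML cells and 112.8 to 279 in LP cells, and were lower in N than in Basal cells in 12 of 12 cases. The part of these markers in the mitochondrial result was not tested.

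D542G and Y541S N cells differed in 1 nuclear member, Ndufa4l2, against 5% of all genes lower and 4.13% higher in Y541S. Ndufa4l2, a relative of Ndufa4 that is induced in hypoxia, was at 11.2, 20.4 and 14.2 CPM in D542G and 0.710, 1.08 and 1.47 in Y541S N cells. Each D542G library was above each Y541S library, -3.81 ± 0.61 on the log2 scale (edgeR adjusted p = 0.00113). Endothelial markers (11 of 12) and pericyte markers (4 of 8) were lower in Y541S N cells too, summed to 100.1 to 138 CPM against 261 to 601 for endothelium, and their part in the Ndufa4l2 result was not tested. Without Y541S N replicate 3 the count was 3, all lower. No mitochondrial member passed edgeR's test, none had an unadjusted p under 0.05 and DESeq2 called none.

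Some members exist as isoforms known from particular tissues or conditions, and these were low throughout. Cox7a1, the heart and muscle isoform of subunit VIIa, was at 3.54, 2.06 and 2.09 CPM in WT vehicle ML cells and at 0.220, 0.555 and 0.171 in WT vehicle Basal cells. Over the 9 ML and 9 Basal vehicle libraries the ranges did not overlap (2.81 ± 0.32, edgeR adjusted p = 7.74e-07). It rose with giredestrant in WT ML cells, to 5.10, 5.58 and 5.59 CPM (1.12 ± 0.38, edgeR adjusted p = 0.0315), and did not pass the test in D542G or Y541S ML cells (0.58 ± 0.37 and 0.35 ± 0.37). LP cells of treated WT mice were at 6.09, 5.38 and 3.28 CPM. N cells, at 0.739, 1.80 and 1.04 in D542G and 1.23, 0.873 and 3.33 in Y541S, were lower than ML by -1.47 ± 0.30 (edgeR adjusted p = 0.00104). Skeletal muscle markers, whose cells carry this isoform, summed to 14.7 to 15.2 CPM in WT ML cells with giredestrant and 10.9 to 12.1 with vehicle, and their part in the result was not tested.

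Cox6b2, the testis isoform of subunit VIb, was the reverse of Cox7a1 between populations. It was at 6.30, 7.82 and 7.45 CPM in WT vehicle ML cells and at 13.4, 14.1 and 10.99 in WT vehicle Basal cells, and over all vehicle libraries it was lower in ML by -0.96 ± 0.16 with a slight overlap (edgeR adjusted p = 7.19e-05). In N cells it was at 14.1, 8.93 and 11.4 CPM in D542G and 4.22, 5.93 and 8.56 in Y541S, higher than in ML by 1.02 ± 0.20 (edgeR adjusted p = 6.67e-04). The 2 mutants' N libraries did not overlap, and the difference between them did not pass the test.

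Cox4i2, the lung isoform of subunit IV that replaces Cox4i1 in low oxygen, and Ndufa4l2 were higher in Basal than in ML vehicle libraries, by 1.13 ± 0.26 and 1.35 ± 0.27 on the log2 scale, with overlapping ranges. Cox4i2 rose with giredestrant in D542G Basal cells, from 2.83, 1.17 and 1.04 CPM to 5.68, 5.86 and 3.62 (1.55 ± 0.42, edgeR adjusted p = 0.0128), and in D542G ML cells by 1.14 ± 0.36. Ndufa4l2 rose in D542G and Y541S ML cells by 1.55 ± 0.40 and 1.30 ± 0.41. Both genes are also known in pericytes, whose markers rose in 5 of 8 cases in D542G Basal and in Y541S ML cells and in 2 of 8 in D542G ML cells. The part of these cells in the result was not tested.

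**Figure D5:**
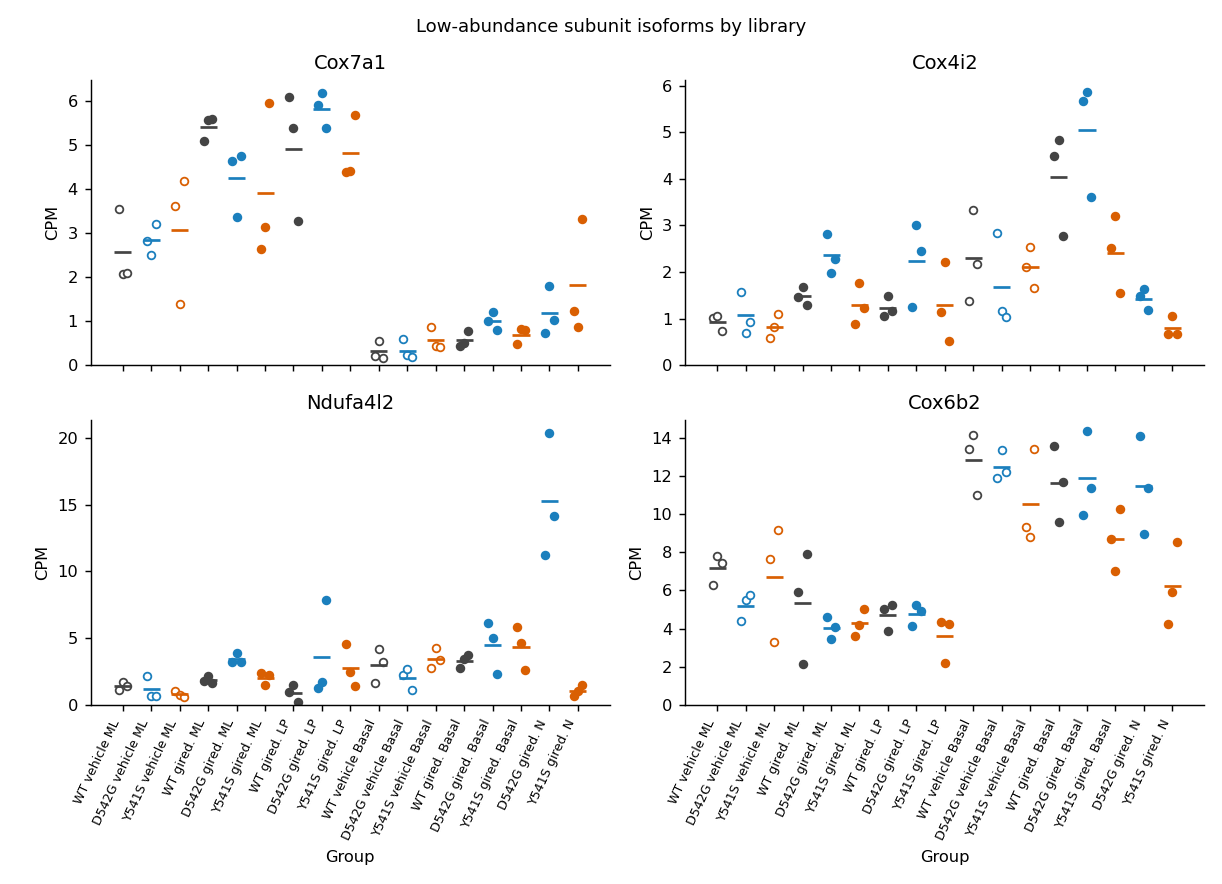
CPM (TMM scaled, vertical axes) of Cox7a1, Cox4i2, Ndufa4l2 and Cox6b2 in each of the 51 libraries by group. Cox7a1 is above 1 CPM in ML and LP libraries and lower in vehicle Basal ones, Cox6b2 is higher in Basal and D542G N libraries, and Ndufa4l2 is highest in D542G N cells.

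Genes around the respiratory chain were counted in lists chosen with earlier results of these data known. The shares of all genes that fell and rose were 17% and 17.1% in WT, 11.3% and 9.34% in D542G and 13% and 12% in Y541S ML cells, and 6.53% and 4.54%, 15.6% and 12.6%, and 6.96% and 8.15% in Basal cells of the same genotypes, and no list was tested against them. Of 41 assembly factors, which build the complexes and are not part of them, 9 fell and 4 rose with giredestrant in WT, 13 fell and none rose in D542G and 22 fell and 1 rose in Y541S ML cells, and 11, 15 and 13 fell with none rising in WT, D542G and Y541S Basal cells. Coa3, which binds newly made mt-Co1 protein, fell by 0.85 ± 0.18 in WT and 0.86 ± 0.18 in D542G ML cells, and fell in Y541S ML cells as well. The tricarboxylic acid cycle and pyruvate dehydrogenase list of 18 genes had 5 falls and 2 rises in WT and 5 falls and 0 rises in D542G ML cells. In Y541S ML cells edgeR called none of the 18, 1 had an unadjusted p under 0.05, DESeq2 called 0, and the summed level was 3613 to 3993 CPM against 3844 to 4123. In WT, D542G and Y541S Basal cells 3, 5 and 0 fell and 0, 0 and 2 rose. Of 16 genes of coenzyme Q synthesis and mobile carriers, 4 fell in ML cells of each genotype and 3 rose in WT.

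Regulators of mitochondrial biogenesis and mitochondrial DNA expression moved both ways, with 5 rises and 3 falls among 24 in WT ML cells, 3 and 9 in D542G and 5 and 5 in Y541S. Esrrg, the estrogen-related receptor gamma, rose in WT ML cells from 7.03 ± 2.49 to 97.5 ± 39.2 CPM, a log2 difference of 3.82 ± 0.48 (edgeR adjusted p = 3.76e-05), and by 1.94 ± 0.45 and 1.79 ± 0.45 in D542G and Y541S. Esrra, its alpha relative, fell by 0.71 ± 0.20, 0.65 ± 0.20 and 0.91 ± 0.21 in the same order. Polg2, the accessory subunit of the mitochondrial DNA polymerase, rose by 1.78 ± 0.25 in WT, while Twnk, the mitochondrial DNA helicase, fell by 1.43 ± 0.32. Of 19 glycolysis genes, 9 fell and 5 rose in WT ML cells, 3 and 4 in D542G and 1 and 5 in Y541S. Slc16a3, a lactate exporter, fell by 3.72 ± 0.49 in WT ML cells, and Aldoc, an aldolase, rose by 1.37 ± 0.26. In Basal cells 6 glycolysis genes rose and none fell in Y541S, and 5 rose and 3 fell in D542G.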

How the data were processed

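Cells were sorted from mammary glands and RNA-seq libraries made from cDNA with the Nextera XT kit, per the labels. The authors deposited 1 table per library, and the values used are its raw counts per gene, unscaled whole numbers per the file headers; the deposited RPKM column was not used. The submitters' processing notes name GRCm38 as the build. No aligner, counter, strand setting or annotation is named by the sources used here. Population was taken from titles and cell type labels, since all samples share 1 source name, mature luminal. Of 52636 genes, 52489 had an entry under their identifier in the GENCODE M21 annotation, which also gave exon lengths and overlaps.

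The members and gene lists were chosen with earlier results of these data known. Counts were fitted with edgeR 4.0.16 (R 4.3.3): TMM scaling, the default filter on low counts by group, a mean per group and the quasi-likelihood F test, in panels of ML, Basal, LP, vehicle, WT giredestrant and mutant giredestrant libraries. Calls are Benjamini-Hochberg adjusted p under 0.05 over all genes of a comparison. A ± after a log2 difference is its SE, the difference divided by the square root of F, and after CPM the SD of libraries. CPM use TMM factors over all 51 libraries. The procedure was tested on simulated data. P-values measure only the spread between these samples.

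Libraries held 21.4 to 60.1 M counts (median 32.9), and counting error weighs most on the lowest genes. Within groups the chi-square per degree of freedom between libraries was at least 21.9, so none was a duplicate. Same-numbered libraries of 1 genotype and treatment deviated together in ML against Basal with vehicle (9 pairs, r 0.134 to 0.180 across genes) and in LP against ML in WT (3 pairs, 0.129 to 0.279), and not in every pair elsewhere. The sources used here do not say where the pairing comes from.

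Named genes were the mitochondrial members, 1 member per complex (Ndufs1, Sdha, Uqcrc1, Cox4i1, Atp5b), known isoforms and the subunit c genes, per comparison the 3 largest rises and falls among called nuclear members of at least 10 CPM, and up to 3 genes per list. Cox5a, Ndufs6, Ndufs4, Atp5l, Coa3, Esrra and the printed promoters' genes were also named after their values were seen where that rule did not take them. Alternatives were RLE scaling, DESeq2 1.42.0, no low count filter, mitochondrial genes left out, all 51 libraries in 1 fit, a replicate block and leaving out each library, with library totals alone and an exon length offset added after the data were seen.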

Additional observations from a re-analysis of the deposited data

Results flagged for a closer look

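The effect of giredestrant in ML cells differed between Y541S and WT mice by edgeR's test of the difference itself in 2 members. For Ndufs4 the difference of effects was -0.4425 on the log2 scale, Y541S minus WT. For Atp5l it was -1.904. With library totals as the only scaling both stayed negative, as did the median of all genes. Neither passed in every refit that left out 1 library.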

How the results depend on the processing

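Under the planned settings 7531 values of single genes kept their direction and side of the threshold, 78 passed it newly and 335 no longer did, and of the counts of members called 513 stayed within 1.5 times, 31 rose and 87 fell beyond it. Under the 2 settings added after the data were seen these numbers were 1069, 49 and 33 for genes and 68, 16 and 8 for counts, and 1 gene reversed, Sdha in WT ML cells, at 0.39 with library totals alone. Counts of members called, nuclear unless stated, moved by over 1.5 times or crossed 0 as follows.

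With library totals alone, giredestrant in WT ML cells gave 26, Y541S Basal cells 55 and 1 mitochondrial, D542G against WT vehicle ML cells 1 mitochondrial, Y541S against WT 11 with vehicle and 2 mitochondrial with giredestrant, and the differences of effect 9 (D542G) and 10 with 3 mitochondrial (Y541S). ML against Basal in treated WT gave 50 and 6 mitochondrial, LP against Basal 34 and N against Basal 45. With the exon length offset, giredestrant gave 14 in D542G ML cells, 22 and 1 mitochondrial in Y541S ML cells, 21 in D542G and 4 in Y541S Basal cells. The same offset gave 0 mitochondrial for Y541S against WT treated ML cells, 2 for the D542G difference of effects, 1 for mutant against WT treated Basal cells, 2 mitochondrial for ML against Basal with vehicle and 1 in treated WT, and 2 between the mutants' N cells.

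DESeq2 gave 19 for D542G and 5 for Y541S against WT vehicle ML cells, 8 and 4 mitochondrial for Y541S against WT treated ML cells, 6 for the D542G difference of effects, 3 mitochondrial for the Y541S one, 1 mitochondrial for Y541S Basal cells, 1 mitochondrial for LP against ML and 2 between the mutants' N cells. Without the low count filter the counts were 13 in D542G ML cells, 1 for Y541S against WT treated ML cells, 0 for the Y541S difference of effects, 21 in D542G Basal cells, 1 for mutant against WT treated Basal cells, 11 for LP against Basal and 3 for N against ML. RLE scaling gave 2 and 1 for the D542G and Y541S differences of effects and 2 between the mutants' N cells. One fit of all 51 libraries gave 18 and 2 for D542G and Y541S against WT vehicle ML cells, 0 mitochondrial for Y541S against WT treated ML cells, 3 for the D542G difference of effects, 22 in Y541S Basal cells, 1 in LP cells, 38 for ML against Basal in treated WT and 41 for N against Basal.

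With the replicate block, where libraries are paired, ML against Basal with vehicle kept 57 higher and 5 lower and had 2 mitochondrial members, and LP against ML kept 0. Elsewhere not every pair of same-numbered libraries correlated above 0.1, so the numbers were not taken as pairing, and the block gave 4 mitochondrial in D542G ML cells, 4 for Y541S against WT vehicle ML cells, 2 and 0 for the D542G and Y541S differences of effects, 38 for ML against Basal in treated WT, 28 for LP against Basal, and 12 and 44 for N against ML and Basal. The lowest correlations of same-numbered libraries were 0.0971 for ML and Basal and 0.0321 for LP and Basal in treated WT and -0.0057 among N comparisons, where the 9 Y541S pairs lay between 0.199 and 0.424 and the 9 D542G pairs between -0.0057 and 0.143.

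Leaving out each library in turn, counts ranged from 2 to 8 mitochondrial in WT ML cells, 3 to 17 and 0 to 7 mitochondrial in D542G ML cells, 33 to 50 in Y541S ML cells, 5 to 42 in WT, 5 to 37 and 0 to 7 mitochondrial in D542G and 9 to 44 in Y541S Basal cells. They ranged from 3 to 6 for D542G and 0 to 6 for Y541S against WT vehicle ML cells, 1 to 3 and 0 to 1 mitochondrial for Y541S against WT treated ML cells, 0 to 5 and 0 to 1 for the D542G and Y541S differences of effects, and 1 to 2 for mutant against WT treated Basal cells. Between populations they ranged from 1 to 2 mitochondrial for ML against Basal with vehicle, 11 to 21 and 0 to 4 mitochondrial in treated WT, 5 to 13 for LP against Basal, 3 to 6 and 7 to 13 for N against ML and LP, and 1 to 3 between the mutants' N cells. The cause of these moves was not tested, beyond fewer libraries in a refit and more genes in an unfiltered one.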
